A study of Homo sapiens with 14 samples.

Results

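The GC-rich DRIP peaks were the peaks whose GRCh38 sequence held at least 55% G+C among its known bases. They were taken from the 8 DRIP-seq peak lists of Nalm-6 cells, on chromosomes 1 to 22 and X, and they numbered 13755 of 1315747 peaks, or 1.05%. The rule used the sequence between the called edges of each peak and no enrichment value. DRIP-seq sequences the DNA fragments that the antibody S9.6, which binds DNA:RNA hybrids, pulls down, and Nalm-6 is a human pre-B cell leukemia line. The study asked whether a mutation of the splicing factor gene SF3B1 changes where R-loops form. The WT cells carried SF3B1 K700K and the MT cells SF3B1 K700E, in isogenic lines obtained from a company. Each genotype had 2 libraries from untreated DNA and 2 from DNA digested with RNase H (labelled RNH1), which removes the RNA of a hybrid. How many clones each line stands for is not given in the sources used here, and the peak lists show neither genotype nor cell type markers.

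R-loops are DNA:RNA hybrids with a displaced DNA strand, and they form where a nascent RNA pairs again with its template. In many human cells they are known for CpG islands at promoters, which are GC-rich, rich in the dinucleotide CpG and often transcribed, and where an excess of G on the displaced strand steadies the hybrid. Other GC-rich DNA is poor in CpG, such as gene-dense DNA near chromosome ends, exons and repeats.

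The sequences below are shown because few or no CpG lie around the summits of these GC-rich regions, from MT and from WT. Each is the 300 bases around the summit of the region ranked second by fold enrichment in its class, outside annotated exons, in GRCh38 on the plus strand, with each CpG in capitals. The first region had peaks in both MT and in neither WT untreated library and lay between genes, with CDH16 the nearest protein-coding start, at chr16:66899521-66899820. The other had peaks in both WT and in neither MT library and lay in an intron of ARID3B, at chr15:74594716-74595015.
Near CDH16, only in MT: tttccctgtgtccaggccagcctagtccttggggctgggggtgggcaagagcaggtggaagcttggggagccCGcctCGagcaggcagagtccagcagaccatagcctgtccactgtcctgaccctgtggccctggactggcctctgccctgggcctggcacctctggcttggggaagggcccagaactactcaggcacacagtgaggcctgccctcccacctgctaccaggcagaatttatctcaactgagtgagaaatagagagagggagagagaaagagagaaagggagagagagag
ARID3B intron, only in WT: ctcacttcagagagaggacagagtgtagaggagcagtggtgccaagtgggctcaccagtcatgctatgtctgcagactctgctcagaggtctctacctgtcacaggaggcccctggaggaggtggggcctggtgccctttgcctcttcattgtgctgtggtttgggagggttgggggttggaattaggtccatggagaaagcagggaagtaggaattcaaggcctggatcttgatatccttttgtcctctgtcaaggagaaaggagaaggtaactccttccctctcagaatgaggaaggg
The stretch near CDH16 held 60.7% G+C but only 2 CpG, and the ARID3B stretch held 53.7% G+C and 0 CpG. The printed bases run past an edge of each region. The whole regions had 55% and 56.3% G+C and CpG ratios, observed to expected, of 0.132 and 0.309, the second near the median of GC-rich sequence.

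Untreated WT libraries held 1056 and 1360 GC-rich peaks and untreated MT libraries 3249 and 2796. After digestion WT libraries held 598 and 1643 and MT libraries 1634 and 1419. As a share of all peaks of a library, GC-rich peaks were 0.854% (95% Wilson interval 0.805% to 0.907%) and 1.04% (0.985% to 1.10%) in untreated WT. The share was 1.28% (1.24% to 1.32%) and 0.945% (0.910% to 0.980%) for untreated MT. After digestion it was 1.72% (1.58% to 1.86%) and 2.12% (2.02% to 2.23%) for WT and 0.812% (0.774% to 0.853%) and 0.716% (0.680% to 0.754%) for MT libraries. These intervals cover counting error over peaks only. GC-rich sequence made up 5.76% of the genome when it was cut into windows of 400 bp, so in all 8 libraries peaks held a smaller share of GC-rich sequence than the genome did.

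**Figure D1:**
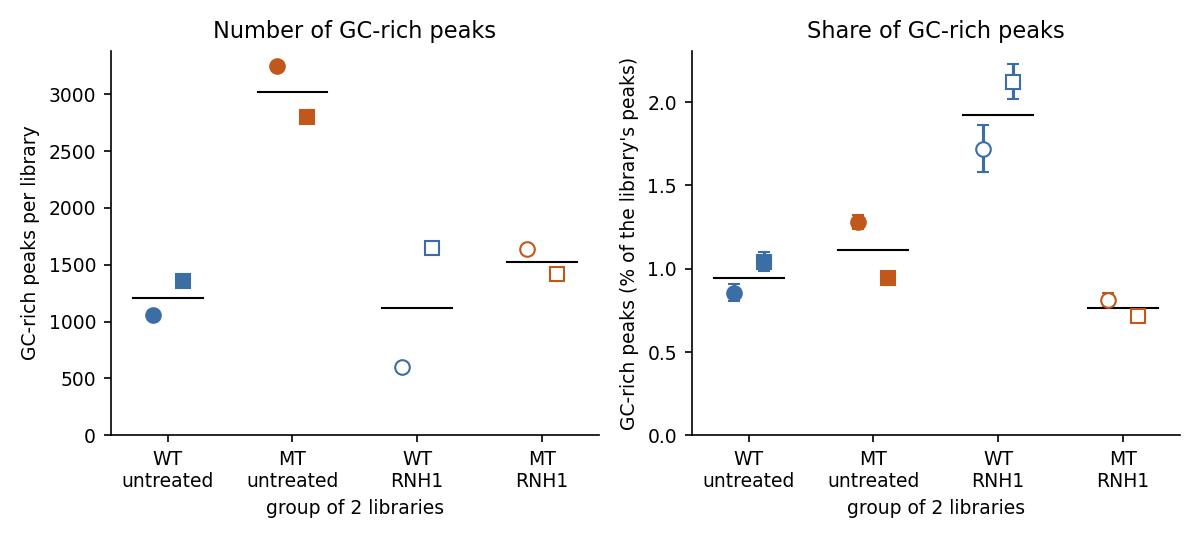
The left panel plots the number of GC-rich peaks in each of the 8 libraries, and the right panel their share of the library's peaks with 95% Wilson intervals. Circles are replicate 1, squares replicate 2, open symbols RNH1-treated libraries, and black lines group means. Both untreated MT libraries lie above both untreated WT libraries in number but not in share, and the highest shares are the 1.72% and 2.12% of RNH1-treated WT.

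No reads are in the lists. A background level worked out from each peak's fold enrichment and p-value stood for depth. In untreated libraries it was 2.99 and 3.13 reads for WT and 3.51 and 4.35 reads for MT. After digestion it was 1.62 and 2.17 reads for WT and 2.76 and 2.55 reads for MT. Depth by this measure thus ran with genotype in each treatment, with higher values in MT and no overlap. The RNH1-treated WT replicate 1 stood apart, with 34857 peaks where the other 7 libraries held from 77391 to 295970. Nothing in the labels says that the replicates came from separate cultures, so p-values measure the spread between these libraries, which may be technical. With 2 libraries against 2 the smallest exact p is 0.333, and with 4 libraries or pairs it is 0.125. Across the 15 tests the smallest p after Benjamini-Hochberg adjustment was 0.455, so no comparison passed 0.05, and values are given with standard errors (SE) over libraries or pairs.

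GC-rich peaks were shorter and had lower enrichment than other peaks. Their median width ranged from 346 to 419 bp in untreated libraries, against 439 to 449 bp for other peaks. G+C was taken over the whole peak, so width entered the rule, and its part in this difference was not tested. With the G+C of 200 bases around the summit, members numbered 1800 and 2211 for WT and 7576 and 7055 for MT untreated libraries. Under the main rule, the median fold enrichment of GC-rich peaks over the local background was 3.76 and 3.64 for WT and 3.75 and 3.55 for MT libraries. Other peaks of the same libraries had 4.40, 4.36, 4.41 and 4.30. The difference on the log2 scale was −0.25 (SE 0.01, lower in 4 of 4 libraries, exact permutation test of signs, p = 0.125). Between genotypes the median fold enrichment of GC-rich peaks did not separate, at a log2 ratio of −0.02 (SE 0.05, exact permutation test, p = 0.667).

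Most GC-rich peaks were poor in CpG. The ratio of observed to expected CpG, which is low in most of the genome because methylated CpG mutates and is high in CpG islands, had a median of 0.258 and 0.261 for WT and 0.266 and 0.260 for MT libraries, against 0.303 in GC-rich genome windows. A ratio of at least 0.6 was found in 8.90% and 9.93% of GC-rich peaks in WT and in 16.6% and 14.8% in MT libraries, and 16.1% of GC-rich windows reached it. The MT libraries were thus near the genome's share and the WT libraries below it. The 400 bp around each summit were searched for 4 runs of at least 3 G, or of C for the other strand. Loops were of up to 7 bases, as in sequences that can fold into a G-quadruplex. The searched bases can run past the edges of a peak. The pattern was present there for 21.7% and 21.0% of GC-rich peaks for WT and 18.1% and 19.2% for MT libraries. It was present in 29.9% of GC-rich windows, which have the same length, and for 1.96% to 3.09% of other peaks. Alu repeats derive from the 7SL RNA. The same 400 bp were searched for at least 3 words of 12 bases shared with it or with the noncoding RNA BCYRN1. They were present for 6.44% and 7.94% of GC-rich peaks for WT and 7.36% and 7.22% for MT libraries. This was near the 8.27% of GC-rich windows and below the 9.50% to 14.5% of other peaks. A sequence match is a description of the letters and does not show a structure or a repeat copy.

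**Figure D2:**
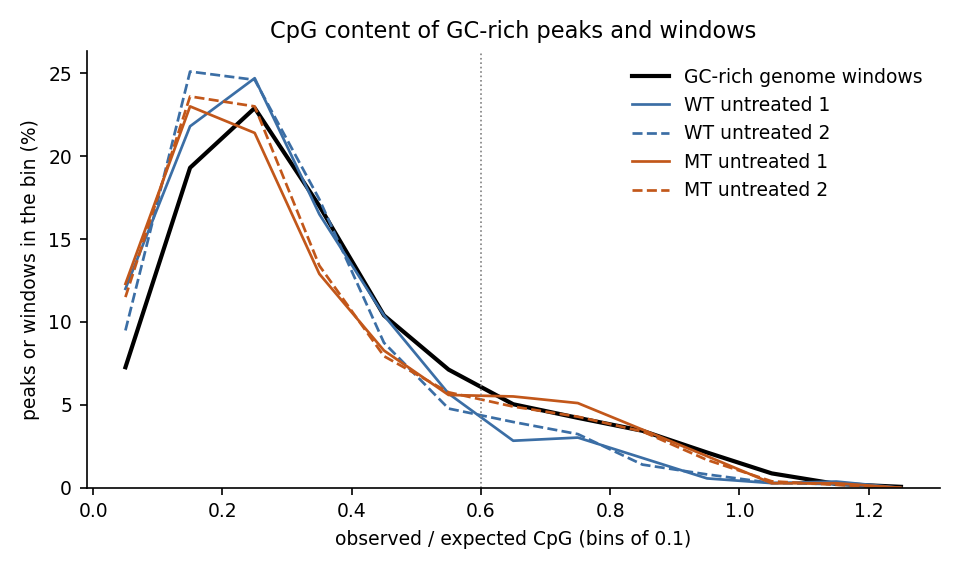
The percentage of GC-rich peaks of each untreated library, and of GC-rich genome windows of 400 bp (black), is plotted against the ratio of observed to expected CpG in bins of 0.1, with a dotted line at 0.6. All 5 lines peak between 0.1 and 0.3, and from 0.6 to 0.9 the MT lines run close to the windows and the WT lines below them. Above a ratio of 1 all lines hold under 1% per bin.

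GC-rich peaks lay nearer to genes than other peaks did. A protein-coding start site was within 1 kb of 11.6% and 12.7% of GC-rich peaks for WT and 15.5% and 14.6% for MT libraries. Among other peaks the share was 1.48% and 1.56% for WT and 1.70% and 1.66% for MT libraries. The difference averaged 12 percentage points (SE 0.82, higher in 4 of 4 libraries, exact permutation test of signs, p = 0.125). GC-rich windows reached 17.3%, above each of these libraries. The excess over other peaks was thus not above that of GC-rich sequence in the genome. The peak covered the start itself in 3.88% and 4.41% of GC-rich peaks for WT and 8.93% and 8.05% for MT libraries. The median distance to a start was 14122 and 15316 bp in WT and 23237 and 23250 bp in MT libraries, against 68934 to 77942 bp for other peaks. MT libraries therefore had more GC-rich peaks at starts and also more far from any protein-coding start, with 36.3% and 34.9% of them beyond 50 kb against 24% and 26.8% in WT.

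The share within 1 kb was higher in MT by 2.85 percentage points (SE 0.72, exact permutation test, p = 0.333), and each MT library exceeded each WT library. With a threshold of 50% G+C the difference was −0.938 points, so its direction depended on the threshold. The order held at the start itself and within 1 kb and not at 3 kb, where the shares were 22.6% and 21.0% for WT and 21.1% and 20.7% for MT libraries. Within 500 bp on either side, the summits of GC-rich peaks numbered 37 upstream and 36 downstream in WT replicate 1 and 46 and 49 in WT replicate 2. They numbered 166 and 156 in MT replicate 1 and 123 and 130 in MT replicate 2. In all 4 libraries the counts within 500 bp before and after the start were close. From 500 to 1000 bp they numbered 18 upstream and 15 downstream in WT replicate 1 and 23 and 32 in WT replicate 2. In MT there were more downstream at that distance, with 48 and 92 in replicate 1 and 43 and 79 in replicate 2.

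**Figure D3:**
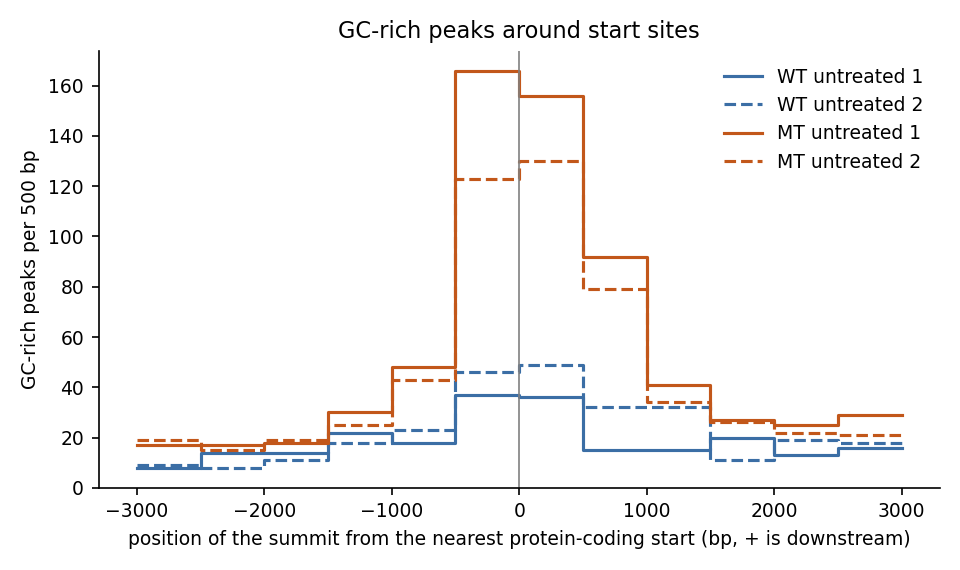
The number of GC-rich peaks per 500 bp is plotted by the position of the summit from the nearest protein-coding start, within 3000 bp, with WT libraries in blue, MT libraries in orange and replicate 2 dashed. The MT libraries reach 166 and 130 beside the start and the WT libraries 37 and 49, and the gap narrows away from it.

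Exons of annotated genes were overlapped by 32.4% and 32.1% of GC-rich peaks for WT and 32.2% and 30.9% for MT libraries, introns alone by 40.6% and 41.6% for WT and 37.2% and 37.6% for MT libraries, and no gene by 27.0% and 26.2% for WT and 30.6% and 31.5% for MT libraries. GC-rich windows had 34.1%, 40% and 25.8%, and other peaks had from 7.30% to 8.01% at exons. Chromosome ends are GC-rich as well, and 27.6% of GC-rich windows lay in the last 5 Mb of a chromosome arm. Of the GC-rich peaks, 26.6% and 28.3% lay there for WT and 16.1% and 15.4% for MT untreated libraries, and 35.8% and 32.4% for WT and 21.7% and 19.7% for MT RNH1-treated libraries. WT lay above MT in both treatments without overlap.

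The DNA was cut only with 5 restriction enzymes before the pulldown, and their sites are AT-rich. The median fragment was 2201 bp at GC-rich windows and 917 bp over all windows. The fragment at the summit had a median length of 2692 and 2756 bp for GC-rich peaks in WT and 2082 and 2066 bp in MT libraries, against 1119 to 1285 bp for other peaks. The log2 ratio of GC-rich to other peaks was 0.99 (SE 0.17, longer in 4 of 4 libraries, exact permutation test of signs, p = 0.125), at 1.27 and 1.3 for WT and 0.70 and 0.71 for MT libraries. A peak edge fell within 50 bp of a cut site in 41.8% to 47.3% of GC-rich peaks of untreated libraries, against 11.2% of GC-rich windows and 53.1% to 57.0% of other peaks. Where the edges of peaks lie thus moved with the cut sites, and their part in the other results was not tested.

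GC-rich peaks were more numerous in MT than in WT untreated libraries. The log2 ratio was 1.33 (SE 0.21, exact permutation test, p = 0.333), and each MT library exceeded each WT library in total and on each of 23 of 23 chromosomes. Other peaks were also more numerous in MT, with a log2 ratio of 1.10 (SE 0.12). That value pools classes of opposite direction, at −5.05, −2.73 and −0.53 for 20% to 25%, 25% to 30% and 30% to 35% G+C and from 1.07 to 2.17 between 35% and 55%. The share of GC-rich peaks therefore differed by 0.166 percentage points (SE 0.19, exact permutation test, p = 0.667), with WT replicate 2 above MT replicate 2. The background level, which stood for depth, was also higher in untreated MT than in untreated WT. With that level scaled to the lowest library, GC-rich peaks numbered 545 and 611 for WT and 1449 and 971 for MT. The log2 ratio was then 1.04 (SE 0.30). Among the 34857 peaks with the lowest p-values of each library, they numbered 97 and 100 for WT and 127 and 76 for MT libraries, with no separation.

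Within the GC-rich range, the ratio of MT to WT was lowest from 60% to 70% G+C. Its log2 value was 1.47 (SE 0.21) at 55% to 60%, 0.81 (SE 0.24) at 60% to 65% and 0.89 (SE 0.29) at 65% to 70%. At 70% or more it was 2.29 (SE 0.72), from only 6 and 16 peaks for WT and 52 and 44 for MT libraries. Just below the range it was 2.17 (SE 0.15) for 45% to 50% and 2.01 (SE 0.16) for 50% to 55%. Other peaks had a median G+C of 37.0% and 37.4% for WT and 41.6% and 41.0% for MT libraries, so base composition differed between the genotypes over all peaks, and the part of that shift in the results on GC-rich peaks was not tested. On the threshold itself, peaks of 54% to 55% numbered 296 and 394 for WT and 1267 and 1218 for MT, and peaks of 55% to 56% numbered 230 and 308 for WT and 898 and 778 for MT libraries. Just under it, 5.07% to 7.11% were within 1 kb of a start, and just over it 6.52% to 7.58%.

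**Figure D4:**
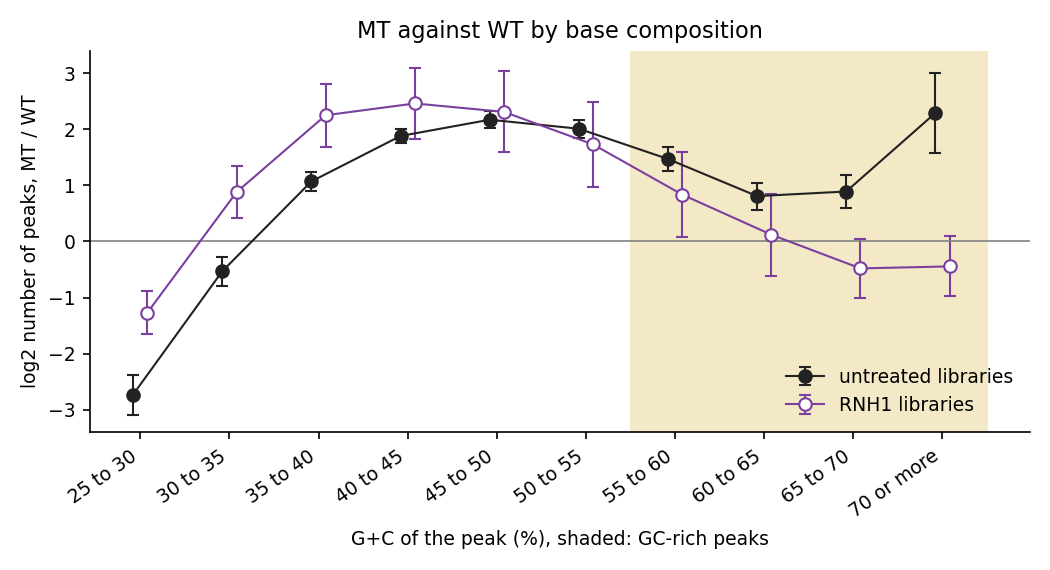
The log2 ratio of the number of peaks in MT to WT libraries is plotted for classes of G+C, for untreated (filled) and RNH1-treated (open) libraries, with standard errors over 2 libraries a group and the GC-rich classes shaded. Untreated ratios in the shaded classes are 1.47, 0.81, 0.89 and 2.29, and RNH1 ratios are 0.84, 0.12, −0.48 and −0.45.

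The excess in MT was unequal among kinds of GC-rich peaks. Peaks with a CpG ratio of at least 0.6 numbered 94 and 135 for WT and 539 and 415 for MT libraries, a log2 ratio of 2.07 (SE 0.32). Peaks under 0.6 numbered 962 and 1225 for WT and 2710 and 2381 for MT libraries, a log2 ratio of 1.23 (SE 0.20). Of the high-CpG peaks, 45.7% and 40.7% for WT and 59.2% and 56.1% for MT libraries lay within 1 kb of a start, against 6.83% to 9.63% of low-CpG peaks. Peaks within 1 kb of a start had a log2 ratio of 1.63 (SE 0.29) and peaks beyond it 1.28 (SE 0.20). In the last 5 Mb of chromosome arms the log2 ratio was 0.53 (SE 0.27), from 281 and 385 peaks for WT and 523 and 431 for MT libraries. Elsewhere it was 1.55 (SE 0.20). Other peaks of the last 5 Mb had 1.14 (SE 0.12). Differences between these kinds were not tested.

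Seen from the genome, any peak touched 0.744% and 0.943% of GC-rich windows for WT and 2.45% and 2.33% for MT untreated libraries. Over all windows the shares were 3.94% and 4.23% for WT and 8.14% and 9.54% for MT libraries. GC-rich windows with a CpG ratio of at least 0.6 were touched in 0.468% and 0.610% of cases for WT and 2.31% and 2.15% for MT libraries. Most CpG-island-like DNA therefore carried no called peak in each of these libraries.

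Among chromosomes, the log2 ratio of MT to WT ranged from 0.61 on chromosome 22 to 3.19 on chromosome X. Chromosome X had 5 and 6 GC-rich peaks for WT and 52 and 48 for MT libraries. Other peaks of chromosome X had a log2 ratio of 1.40 (SE 0.205). Chromosome 13 followed with 2.56 (SE 0.61), from 10 and 23 peaks for WT and 94 and 85 for MT libraries, and its other peaks had 0.97 (SE 0.11). The gene-dense and GC-rich chromosomes 16, 19 and 22 had the lowest ratios, at 0.69, 0.73 and 0.61. Chromosome X also had the fewest GC-rich peaks for its GC-rich sequence, at 2.38 per 1000 GC-rich windows and untreated library, against 7.76 on chromosome 13. The copy number of the chromosomes was not measured here.

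After digestion with RNase H, GC-rich peaks were fewer in 3 of 4 pairs. The log2 ratio of RNH1-treated to untreated was −0.82 and 0.27 for WT and −0.99 and −0.98 for MT pairs. The mean was −0.63 (SE 0.30, exact permutation test of signs, p = 0.25). Other peaks were fewer in all 4 pairs, with log2 ratios of −1.84 and −0.77 for WT and −0.33 and −0.575 for MT. As a share of all peaks, GC-rich peaks were higher after digestion by 0.861 and 1.08 percentage points in WT and lower in MT pairs, with differences of −0.468 and −0.229. The mean over the 4 pairs was 0.312 (SE 0.39, exact permutation test of signs, p = 0.5). With the background level scaled in this way, the log2 ratios were 0.13 and 1.15 for WT and −0.49 and −0.175 for MT pairs.

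After digestion, GC-rich peaks made up a smaller share in MT than in WT, with a difference of −1.16 percentage points (SE 0.21, exact permutation test, p = 0.333), without overlap. Beside it, other peaks were more numerous in MT after digestion, with a log2 ratio of 1.96 (SE 0.57). The number of GC-rich peaks after digestion had a log2 ratio of MT to WT of 0.62 (SE 0.74, exact permutation test, p = 1.0). Without WT replicate 1, the library of lowest depth and fewest peaks, this value was −0.11, so its direction depended on that replicate. By classes of G+C the log2 ratio in RNH1-treated libraries was 0.84 (SE 0.76) at 55% to 60%, 0.12 (SE 0.73) at 60% to 65%, −0.48 (SE 0.53) at 65% to 70% and −0.45 (SE 0.54) at 70% or more.

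Fewer GC-rich peaks than other peaks of an untreated library met a peak of the paired RNH1-treated library. The share that met one was 12.3% and 23.2% for WT and 25.5% and 24.3% for MT pairs for GC-rich peaks, and 18.1%, 34.3%, 51.3% and 49.1% for other peaks. The difference was −16.8 percentage points on average (SE 4.97, exact permutation test of signs, p = 0.125), lower in 4 of 4 pairs, at −5.79 and −11.1 for WT and −25.7 and −24.8 for MT. Among the 34857 peaks with the lowest p-values of each library, both WT pairs turned, at 4.68 and 4.83, while the MT pairs stayed at −19.1 and −19.2, and the mean was −7.20 (exact permutation test of signs, p = 0.5). Peaks that met none are called bona fide here. This is an overlap rule made for the lists, and the study's own rule for comparing paired samples may differ. GC-rich bona fide peaks numbered 926 and 1044 for WT and 2419 and 2117 for MT, a log2 ratio of 1.20 (SE 0.13, exact permutation test, p = 0.333). With equal peak numbers they numbered 56 and 50 for WT and 95 and 53 for MT, a ratio of 0.42 (SE 0.43, exact permutation test, p = 0.667). Between untreated replicates, where no enzyme was used, 40% and 30.9% of GC-rich peaks for WT and 59.7% and 62.3% for MT recurred, against 71.3%, 67.1%, 81.4% and 69.4% of other peaks. The share that recurred was thus lower for GC-rich peaks in all 4 libraries here too. The genotypes differed in the share of GC-rich peaks that met an RNH1 peak by 7.14 percentage points (SE 5.50, exact permutation test, p = 0.333), and without WT replicate 1 by 1.68.

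**Figure D5:**
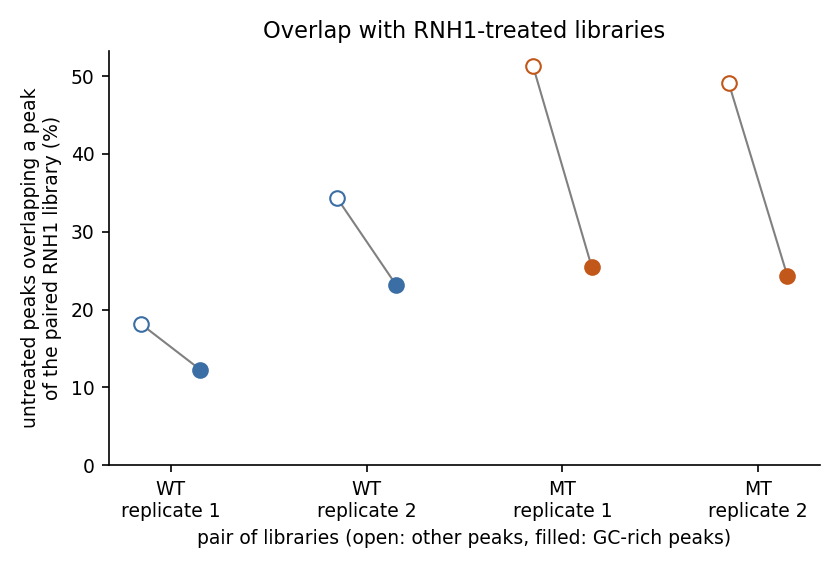
For each pair of libraries, the percentage of untreated peaks that overlap a peak of the digested partner library by at least 1 base is plotted for other peaks (open) and GC-rich peaks (filled). With all deposited peaks, the filled point is lower in all 4 pairs, from 51.3% to 25.5% and from 49.1% to 24.3% in the MT pairs. With equal peak numbers, which are not drawn, it was higher in both WT pairs, by 4.68 and 4.83 points.

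Merging the untreated peaks of all base compositions gave 414355 regions. Of these, 5003, or 1.21%, were GC-rich over the whole merged span, so the width of a region entered this rule too. Of the GC-rich regions, 3260 (65.2%) had a peak in only 1 of the 4 libraries, against 38.2% of all regions. A peak in all 4 was found in 141 of 5003 (2.82%), against 10.3% of all regions. Peaks in both MT and in neither WT library were found in 1116 (22.3%), against 32.2% of all regions, and peaks in both WT and in neither MT library in 160 (3.20%), against 8.19% of all regions. These 3 shares were under those of all regions, but the order depended on the rule. With a bona fide peak required in both libraries, 14.4% of GC-rich regions were only in MT, against 12.5% of all regions. Without MT replicate 2 the shares only in MT were 46.1% and 42.2%, and without WT replicate 1 those only in WT were 16.6% and 13.5%. The CpG ratio was at least 0.6 in 24.8% of the GC-rich regions in all 4, in 20.2% of those only in MT and in 3.12% of those only in WT. Of the regions only in MT, 20.3% lay within 1 kb of a start and 15.1% in the last 5 Mb, and of those only in WT 15.6% and 33.8%. An RNH1-treated MT library had a peak at 30.9% and 26.7% of the GC-rich regions only in MT, and at 53.3% and 53.0% of the less GC-rich regions only in MT. The direction depended on the class and on the genotype of the RNH1-treated library. RNH1-treated WT libraries had a peak at 3.14% and 8.96% of GC-rich regions only in MT, against 2.21% and 7.34%. At GC-rich regions in all 4 libraries the RNH1-treated WT libraries had a peak in 43.3% and 58.2%, against 29.9% and 53.1% of less GC-rich ones. The RNH1-treated MT libraries had one there in 47.5% and 49.6%, against 70.9% and 71.1%. RNH1-treated MT libraries had one at 13.1% and 10% of GC-rich regions only in WT, against 7.29% and 7.21%. RNH1-treated WT libraries had one at 12.5% and 28.1% of these, against 17.6% and 31.7%.

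Among the 8 highest GC-rich regions in all 4 libraries was an intron of MAPKAP1, which encodes a subunit of the kinase complex mTORC2, at chromosome 9, 125622750 to 125623252. It had 15.7 and 16.7 for WT and 13.9 and 10.3 for MT, and after digestion 17.4, 17.9, 9.85 and 5.07. A region on chromosome 17 from 15704278 to 15704853 overlapped the zinc finger gene ZNF286A and the processed pseudogene UBE2SP1. It met an annotated exon, which may be that of either gene. Its values were 8.02 and 7.03 for WT and 14.4 and 12.5 for MT. After digestion no WT library had a peak there and the MT libraries had 6.92 and 5.91. A further 5 of these regions had a mean fold enrichment from 8.56 to 9.97. All 8 had a peak in at least 1 RNH1-treated MT library and 7 in a WT one.

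Of the regions in all 4 libraries at a start, the highest covered that of IFNAR1, which encodes a chain of the type I interferon receptor, on chromosome 21 from 33324029 to 33325893. Its fold enrichment was 9.04 and 8.88 for WT and 7.59 and 8.54 for MT, and 7.21, 9.22, 6.89 and 7.04 after digestion, nearly level over the 8 libraries. The start of TRA2B, a splicing regulator, had 4.23 and 6.30 for WT and 7.71 and 9.51 for MT, and no RNH1-treated library had a peak. The start of CYP26B1, an enzyme that degrades retinoic acid, had 7.06 and 6.57 for WT and 5.76 and 5.61 for MT, with peaks of 5.32 and 5.94 only in the RNH1-treated WT libraries. At the start of VAC14, which encodes a scaffold of the lipid kinase PIKfyve, the values were 6.97 and 8.36 for WT and 4.74 and 4.86 for MT, with no peak after digestion. The 8 named starts had CpG ratios from 0.151 at USP2, a deubiquitinase gene, to 0.918 at TRA2B.

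Only in MT, the highest region was in an intron of ARHGAP39, with 12.2 and 9.44 and no peak after digestion. The region near CDH16 shown above had 10.9 and 10.3, and its peaks in RNH1-treated MT libraries were higher, at 16.7 and 16.2. RNH1-treated WT replicate 1 also had a peak there, at 7.12. The cytidine deaminase gene APOBEC3A had 7.84 and 10.7 at chromosome 22, 38958804 to 38960589. Although no untreated WT library had a peak there, the RNH1-treated WT libraries had 9.0 and 9.42, beside 14.4 and 13.3 in the treated MT libraries. Of the 8 highest regions only in MT, 5 had a peak in some RNH1-treated library. Among the highest starts only in MT was H3-3A, which encodes the histone variant H3.3, with 10.1 and 6.67. H3-3A lay in a region of 70.1% G+C and a CpG ratio of 0.925, and no RNH1-treated library had a peak there. The starts of COL4A2, a basement membrane collagen, with 7.31 and 9.21, and of CSTF3, a subunit of the cleavage factor of pre-mRNA 3′ ends, with 6.69 and 7.43, had no peak after digestion either. TCAF1 had 7.74 and 8.15 in untreated and 11.3 and 10.6 in RNH1-treated MT libraries, and 4.51 in RNH1-treated WT replicate 2.

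Only in WT, the highest region overlapped the pseudogene POTEKP on chromosome 2, with 10.8 and 8.0, and the ARID3B intron shown above had 8.19 and 7.27. A region 954 bp from a start of PAX6, a transcription factor gene of eye development, lay in an intron of the noncoding gene PAUPAR on chromosome 11 from 31818915 to 31819484 and had 6.90 and 7.87. None of these 3 had a peak in an RNH1-treated library, and of the 8 highest only in WT, 2 had one. At starts, SAP130, a subunit of a Sin3 corepressor complex, had 6.43 and 4.66, the protease gene CTSB 5.42 and 5.66, and LMX1A, a homeobox gene, 4.80 and 5.57. Sequences of POTEKP, of UBE2SP1 and of the zinc finger genes have close copies, and reads could be placed on either copy.

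Over protein-coding genes, 914 of 19626, or 4.66%, had a GC-rich peak within 1 kb of a start in at least 1 untreated library. The number was 133 and 191 for WT and 543 and 434 for MT libraries, a log2 ratio of 1.61 (SE 0.31, exact permutation test, p = 0.333). In all 4 libraries 18 genes had one, in both MT and neither WT library 224, and in both WT and neither MT library 29. A peak of any composition lay at a start of 5824 of the 19626 genes (29.7%), and these were not divided into the same classes. Other peaks were more numerous in MT as well, with a log2 ratio of 1.10 (SE 0.12) over the genome. Within 1 kb of a start, other peaks numbered 1813 and 2021 for WT and 4269 and 4876 for MT libraries. Whether the split of genes is particular to GC-rich peaks was not tested. The 8 genes with DRIP-qPCR primers in the study (BTBD19, EGR1, ING3, NOP58, SNRPN, ZNF90, SLC9A5 and DDX10) had 0 GC-rich peaks at a start, and 2 of the 8 had a peak of any composition there.

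Families of genes are given by their counts beside the background of 4.66%, which is 29.7% for peaks of any composition. Replication-dependent histone genes had 0 of 69 (15, or 21.7%, had a peak of any composition). Genes of cytosolic ribosomal proteins had 2 of 84 (2.38%). These were RPL17, with a fold enrichment of 4.44 in MT replicate 1, and RPL8, with 4.12 in WT replicate 2. HOX genes of body patterning had 2 of 39 (5.13%), HOXB8 with 4.11 in WT replicate 2 and HOXC8 with 2.53 in MT replicate 2. Clustered protocadherins, neuronal adhesion genes, had 1 of 53 (1.89%), PCDHB1 with 3.16 in MT replicate 1. No gene of these 4 families had a GC-rich peak in more than 1 untreated library. A peak of any composition was at a start of 15.5% of ribosomal protein, 10.3% of HOX, 22.6% of protocadherin and 29.3% of ZNF genes. ZNF genes had 23 of 508 (4.53%), with 2 and 4 for WT and 14 and 13 for MT libraries. ZNF652 had peaks of 3.54 in WT replicate 2 and 4.69 and 4.03 in MT, ZNF879 had 5.27 and 4.83 in the MT libraries alone, and ZNF480 had 4.33 and 3.41 there.

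Genes that process R-loops had 1 of 35 (2.86%), THOC7, a subunit of the mRNA export complex THO, with 7.70 in MT replicate 1 and 12.6 in the treated library of the same pair. B-lineage genes had 1 of 27 (3.70%), SPI1, which encodes the transcription factor PU.1, with 3.30 in MT replicate 1. Its peaks in RNH1-treated MT libraries were 3.49 and 4.32. T cell genes had 0 of 11 and myeloid genes 0 of 10. The background over all protein-coding genes was the 4.66% given above.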

How the data were processed

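DRIP-seq of Nalm-6 cells gave 8 libraries, put into groups by their labels (WT, K700K, and MT, K700E, 2 libraries per group). Per Methods, the authors mapped reads with BWA-MEM (GRCh38), filtered out mitochondrial and duplicate reads, and ran MACS2 for narrow peaks in each library. Versions are not given in the sources used here. Per peak, the deposited lists hold a summit fold enrichment, which is a ratio over local background, a −log10 p-value, a −log10 q-value, a whole-number score, and the summit's other column, its offset. Methods give a q of 0.05 and a paired-end option for what they describe as single reads, but the lists stop at a −log10 q of 2, and the setting used is not settled. The splicing table of HEK293T cells, which also holds the authors' own comparisons, was not used.

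G+C was computed on the peak's own bases, leaving out unknown ones (0 members had any). Starts and exons came from GENCODE version 44. Fold enrichment and −log10 p together gave back the background and summit reads. Untreated and RNH1-treated libraries were paired by genotype and replicate number, because Methods state that part of each cut DNA was digested. Over 10 classes of G+C, deviations of untreated and treated replicates correlated at 0.785 in MT and 0.0523 in WT. Log2 ratios are differences of mean log2 values. Exact permutation tests were two-sided, over libraries or over signs of pairs, with Benjamini-Hochberg adjustment over 15 tests. Named regions were the 8 of highest mean fold enrichment in each class and the 8 highest within 1 kb of a start, and for gene lists the 3 highest members, with every qPCR gene. Some regions that this rule names are not reported here. Members, lists and tests were chosen with earlier results of these data known. Overlap, recovery and test code was tested on simulated data. Python 3.11.15, numpy 2.4.6, pandas 2.3.3, scipy 1.17.1 and matplotlib 3.10.9 were used. Alternatives were the G+C threshold and window, fold and q minima, equal peak numbers, a scaled background level, overlap and start definitions, the replicate block, and each replicate left out.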

Additional observations from a re-analysis of the deposited data

Results flagged for a closer look

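The change in the share of GC-rich peaks after digestion with RNase H went opposite ways in the genotypes. It was 0.861 and 1.08 percentage points in the WT pairs and −0.468 and −0.229 in the MT pairs. The difference between genotypes was not tested. Beside it, the RNH1-treated WT libraries had the lowest background, 1.62 and 2.17 reads, and the fewest peaks, 34857 and 77391. With the background level scaled to the lowest library the changes were 1.13 and 1.27 for WT and −0.244 and −0.0163 for MT pairs.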

How the results depend on the processing

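Of 214 recomputed values, 188 kept their direction, or for counts stayed within 1.5 times. A further 18 reversed and 8 moved, and the cause was not tested. The side of the 0.05 threshold was compared too, but it could change only without the pairing of treated and untreated libraries. In the other settings no exact p could pass it, so its staying the same carries no information there. At 60% G+C or more the untreated share difference was −0.0331 and the RNH1 number −0.0109. The difference in share within 1 kb of a start was −0.938 at 50% or more, −1.40 with the G+C of 200 bases around the summit and −0.92 at 3 kb. The genotype difference in median fold enrichment was 0.049 with the 200 bases, 0.0913 at a fold of at least 4, 0.317 with equal peak numbers and 0.111 with the background level scaled. With equal peak numbers, the genotype difference in number was −0.00358 untreated and −2.57 after RNH1, the RNH1 effect on number 0.886, and the genotype difference in the share meeting an RNH1 peak −18.4. With the background level scaled to the lowest, the RNH1 effect on number was 0.155, although the lists still differed in length, from 34857 to 180425 peaks.

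Leaving out 1 replicate at a time gave −0.00193 to 0.334 for the untreated share, where the lowest value was without MT replicate 1. It gave −0.11 to 1.35 for the RNH1 number and −0.0579 to 0.0214 for median fold enrichment, which turned without WT replicate 1 (0.00562) or MT replicate 2 (0.0214). Regions only in MT ranged from 1183 to 2305 and only in WT from 188 to 831, since 1 library then stood for a genotype. Regions only in MT numbered 1780 where a region needed only to hold a GC-rich peak, 720 with a bona fide peak in both libraries (14.4%, against 12.5% of all regions) and 442 at a fold of at least 4 (25.3%, against 32.5%), and regions only in WT 92 at that fold (5.27%, against 10.9%).

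MT and WT share only replicate numbers. Deviations of replicate 1 over 10 classes of G+C correlated at −0.468 between genotypes. A replicate block left the number at 1.33 (SE 0.29, exact permutation test, p = 0.5, the smallest possible), and it changed no other call. The crossed pairing, chosen after seeing the data, called 0 comparisons too, at the same smallest p. Without the pairing of treated and untreated libraries the RNH1 effect on number was −0.629 (exact permutation test, p = 0.286). A version without masked repeats could not be run, since the genome used holds no mask. Peak lists hold no reads, so weak GC-rich signal under the calling limit was not detectable, and 2 libraries per group cannot pass a threshold of 0.05.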

Other observations

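Members with words of the 7SL RNA or of BCYRN1 in the 400 bp around the summit are called 7SL-related here. They were 6.44% and 7.94% of GC-rich peaks in untreated WT libraries. They were 7.36% and 7.22% in untreated MT libraries, and 8.36% and 10.1% for WT and 13.1% and 12.2% for MT after digestion. In MT pairs the log2 ratio of RNH1-treated to untreated numbers was −0.16 and −0.22, against −0.99 and −0.98 for all GC-rich peaks. High-CpG members of the MT pairs had −1.27 and −1.12, and members within 1 kb of a start −1.41 and −1.31. In the WT pairs the values were −0.44 and 0.62 for 7SL-related, −0.49 and 0.37 for high-CpG and −0.83 and 0.09 for start-site members, so the 2 pairs disagreed in sign for each kind. These kinds were compared after the values had been seen, and no test was made.

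Among GC-rich peaks within 1 kb of a start, G exceeded C on the coding strand in 48.8% and 46.8% for WT and 57.9% and 56.5% for MT untreated libraries. The share was 60.1% and 57.8% for WT and 58.4% and 58.7% for MT for other peaks at starts. The GC-rich values rest on 123 and 173 peaks for WT and 504 and 407 for MT libraries. G and C were counted over the whole peak, and peaks before and after the start were pooled. The difference between genotypes was not tested.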
